A study of Mus musculus with 9 samples.

Results

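The p53 target genes examined here are 10 genes that p53 switches on in many cell types: Cdkn1a, Ccng1, Mdm2, Eda2r, Aen, Bbc3, Bax, Trp53inp1, Sesn1 and Sesn2. They were taken by gene symbol, as all probe sets (groups of short array probes for one transcript) whose platform annotation named 1 of them alone. That gave 22 probe sets of 9 genes, out of 34945 probe sets with a single symbol that stand for 18193 genes. Bax had no probe set under its symbol in the annotation used and was not analysed, and the same held for Trp53, the gene of p53 itself. Eda2r and Bbc3 had 1 probe set each, and the other 7 genes had several. Where a gene had several, the brightest by mean log2 signal stands for it below, and the others are given beside it.

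Signals came from 9 Affymetrix mouse arrays, 3 per group, of cells grown in low-attachment dishes in medium that held FGF and EGF (20 ng/ml each). The wild-type group consisted of neural stem cells from the third ventricle of C57BL/6 pups at postnatal day 1, of the genotype Nf1flox/flox, given a LacZ virus as control. Nf1-null cells had the same origin and genotype and were given a Cre virus, which deletes the floxed part of Nf1, a gene whose product restrains Ras. Both groups of neural stem cells (NSC) were thus transduced, and the wild-type cells still carried the floxed alleles. Glioma stem cells were grown from optic nerve gliomas of C57BL/6 mice aged 3 months with the genotype Nf1+/-GFAP CKO, whose name refers to GFAP, a gene of astrocytes and neural progenitors, and for which the labels name no virus. The groups are called wild-type, Nf1-null and glioma cultures below (wild-type NSC, Nf1-null NSC and glioma stem cells in the figures). Whether the 3 glioma arrays represent different tumours is not in the labels, and the titles number the NSC arrays only as replicates. The p-values thus measure only the spread between these samples.

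All 9 arrays had the same trimmed mean signal of 1500, with medians between 264.7 and 287.4, and 0 pairs of arrays were identical. Nf1 signal was 919.5 to 1139.5 in wild-type cultures, 430.3 to 645.8 in Nf1-null cultures and 548.9 to 622.6 in glioma cultures. Against wild-type cultures its log2 difference was -0.90 in Nf1-null cultures (adjusted p = 0.123), which did not pass, and -0.78 in glioma cultures (adjusted p = 0.0441). Whether its probe set lies in the deleted part was not checked. All 8 markers of neural stem and progenitor cells were measured, and their summed signal was 252332 to 333584, 254705 to 288762 and 239590 to 284595 in the same order. The 5 astrocyte markers summed to 119903 to 148151, 59685.9 to 97568.5 and 31794.9 to 39676.3, and in glioma cultures 3 of them fell relative to the wild type, as did 2 of the 8 stem cell markers and 2 of 5 neuron markers. Other markers of those lists were higher there without overlap but did not pass, among them the astrocyte marker S100b (3.86-fold), the stem cell marker Nes (2.79-fold) and the neuron marker Tubb3 (2.21-fold). The neuron list had a median log2 difference of 0.88. Of 5 markers of oligodendrocyte precursors 0 passed in limma. Olig2 (1.45-fold) and Cspg4 (2.45-fold) were higher without overlap, while Pdgfra and Sox10 had log2 differences of -0.81 and -0.60 with overlap. That list's median was 0.08, and 13.9% of all genes were higher without overlap. In bulk samples fewer cells of a type and less RNA per cell cannot be told apart. No marker of microglia, endothelium or fibroblasts passed in any comparison, and of these Aif1, C1qa, Ptprc, Cldn5, Tie1 and Pdgfrb stayed under a signal of 100 on every array. Nf1-null array 2 correlated at 0.947 and 0.938 with the other arrays of its group, and glioma array 1 at 0.950 and 0.944, against 0.989 between glioma arrays 2 and 3.

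p53 is a transcription factor that is kept scarce by the ubiquitin ligase Mdm2 and accumulates after DNA damage, oncogene activity and other stress. It binds DNA at paired half-sites and turns on genes that halt the cell cycle, promote cell death, adjust metabolism and, through Mdm2, end the response. Several of these genes also answer to other factors: Cdkn1a to growth factor signalling, and Sesn2 to the stress factor ATF4. In the nervous system p53 limits the self-renewal of neural stem cells and is often disabled in malignant glioma.

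The DNA around annotated start sites is shown first. A p53 half-site there is a feature that several members share and that their selection by symbol did not use. RefSeq promoter windows of 300 bases (build GRCm38.p6, 250 before and 50 after a transcript start) were matched by symbol for 9 of the 10 genes, 14 windows in all, and none was matched for Trp53inp1. The p53 half-site searched has 10 bases: 3 purines, a C, 2 bases that are A or T, a G and 3 pyrimidines, a pattern that reads the same on both strands. An exact half-site lay in windows of 6 of the 9 genes (Cdkn1a, Ccng1, Mdm2, Aen, Sesn1 and Bax), against 9.55% of 27025 genes with a window. A pair of half-sites at most 13 bases apart, with up to 2 mismatches in all and the C and G kept, lay in windows of 4 genes (Cdkn1a, Ccng1, Sesn1 and Bax), against 4.71% of all genes. The members are known p53 targets and their windows were richer in G and C, at 64.3% against 53.8%, so these shares describe the windows only. The stretches below hold the matches of 5 measured members, 5′ to 3′ on the gene's strand. Capitals mark the half-sites, both of the pair with the fewest mismatches where there is one.
Cdkn1a, chr17:29090882-29090961, plus strand: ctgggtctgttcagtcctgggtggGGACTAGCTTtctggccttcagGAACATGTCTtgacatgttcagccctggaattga
Ccng1, chr11:40755432-40755511, minus strand: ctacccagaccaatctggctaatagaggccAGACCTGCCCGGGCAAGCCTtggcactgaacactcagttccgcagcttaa
Sesn1, chr10:41887224-41887303, plus strand: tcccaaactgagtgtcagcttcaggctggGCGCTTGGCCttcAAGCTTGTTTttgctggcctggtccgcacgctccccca
Mdm2, chr10:117710900-117710979, minus strand: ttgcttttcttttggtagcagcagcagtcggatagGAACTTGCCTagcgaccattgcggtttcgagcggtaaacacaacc
Aen, chr7:78895927-78895956, plus strand: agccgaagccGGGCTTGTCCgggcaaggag

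The marked Cdkn1a pair had 0 mismatches with 12 bases between its half-sites. It began 73 bases before the upstream of the gene's 2 annotated starts. The bases directly after its downstream half-site, left in small letters, also match with 1 mismatch, so a touching pair lies there as well. In Ccng1 the half-sites touched, with 1 mismatch, 195 bases before the start. The Sesn1 pair, with 2 mismatches and 3 bases between, began 186 bases before the downstream start. Mdm2 and Aen held a single exact half-site. That of Aen began 121 bases before a downstream annotated start and lay after the gene's upstream start. No match was found in the windows of Eda2r, Sesn2 and Bbc3, which says only that these letters are not in them. These 5 genes had different values in the comparisons: Cdkn1a and Aen rose in glioma cultures over wild-type cultures, Sesn1 lay lower there without passing, and Eda2r, with no match, also rose.

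**Figure D1:**
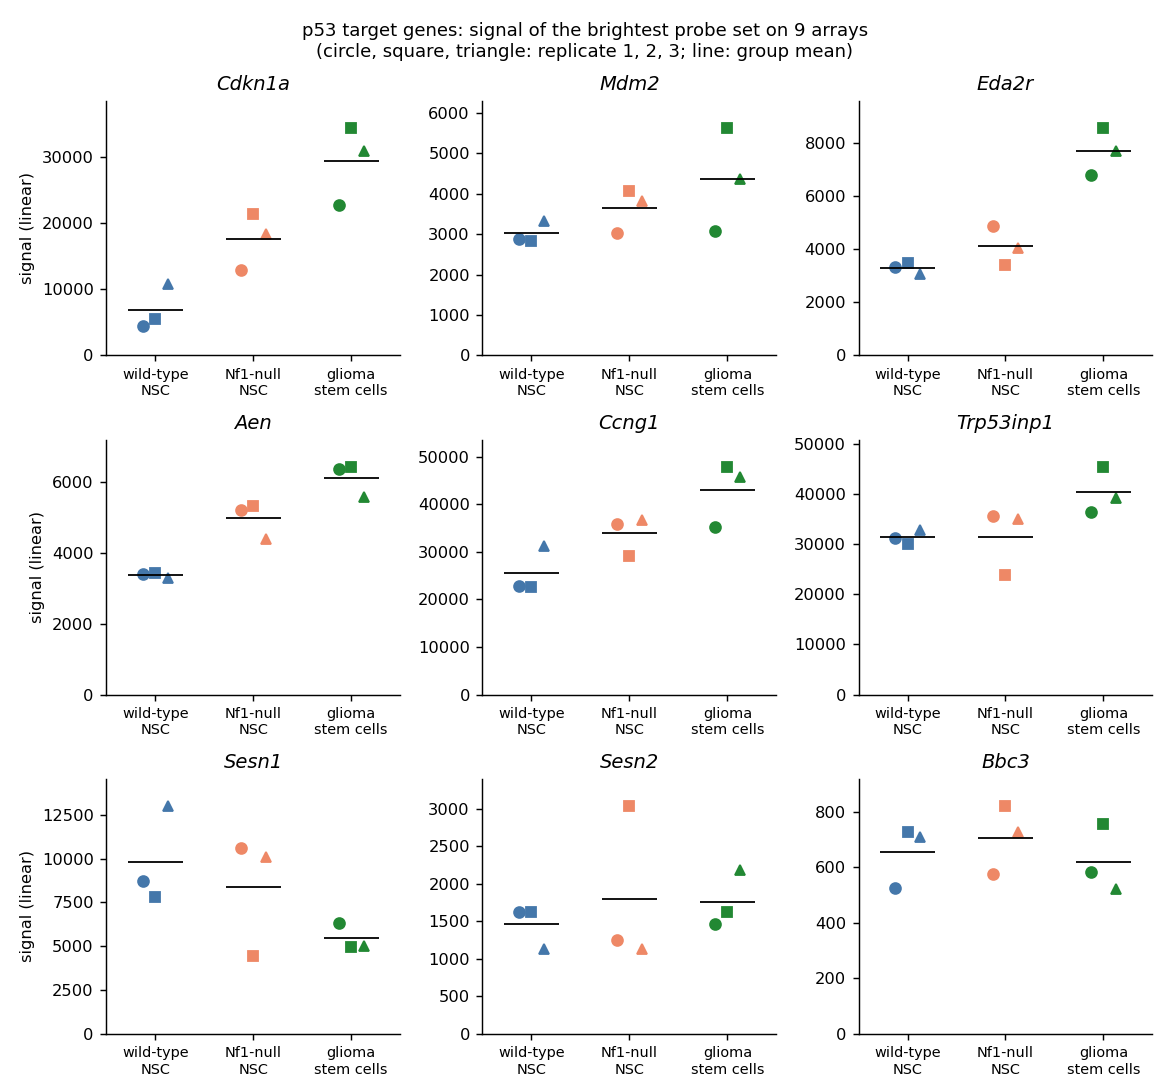
Signal (linear scale, axis from 0) of the brightest probe set of each measured p53 target gene on the 9 arrays, with group means as lines and replicate numbers as symbols. Cdkn1a, Aen, Eda2r and Trp53inp1 lie highest on all 3 glioma stem cell arrays, and Sesn1 lies lowest there on average. Nf1-null NSC array 2 (square) stands apart for Sesn1, Sesn2 and Trp53inp1.

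Glioma cultures were compared with wild-type cultures to ask how the tumour-derived cells differ from stem cells that keep Nf1. The pair also differs in the genotype and age of the mice, the tissue and the virus, which cannot be told apart here. Of the 9 measured targets, Cdkn1a, Eda2r and Aen rose and 0 fell, when 3.46% of all genes rose and 5.6% fell. The median log2 difference of the 9 was 0.49, beside -0.09 over all genes. Signals of the groups did not overlap for 5 targets that were higher (Cdkn1a, Eda2r, Aen, Ccng1 and Trp53inp1) and for 1 that was lower (Sesn1), against 13.9% and 20.9% of all genes. When only the brighter 9097 genes were tested, which include all 9 targets, Ccng1 rose as well (adjusted p = 0.0181), beside 11.4% of those genes that rose. The 3 calls were close to the threshold: without wild-type array 2, glioma array 2 or glioma array 3 none of the 9 passed, and without wild-type array 3 Aen did not, while all 3 kept their direction; without glioma array 1 there were 4. Scaling each array to a common median moved the median of all genes from -0.09 to 0.05 in this comparison and turned the split of calls over all genes from 630 higher and 1019 lower to 831 higher and 695 lower; 4 targets then rose.

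Cdkn1a encodes p21, the inhibitor of cyclin-dependent kinases through which p53 halts the cell cycle. Its signal was 4489.7, 5472.9 and 10829.4 on the wild-type arrays, 12944.8, 21392.6 and 18296.5 on the Nf1-null arrays and 22677.2, 34392 and 30939.5 on the glioma arrays, in order of replicate number. No array of one group overlapped another group, and wild-type array 3 lay closer to Nf1-null array 1 than to the other arrays of its own group. The group means were 6931 ± 3412, 17545 ± 4274 and 29336 ± 6020 (SD, n = 3 each). Cdkn1a rose 4.49-fold in glioma cultures over wild-type cultures (log2 2.17, SE 0.36, adjusted p = 0.0194, 95% interval 2.50 to 8.08-fold). The second probe set of the gene gave 2383 ± 1070, 6725 ± 1712 and 12743 ± 3312 (SD, n = 3), again without overlap between any groups. Cdkn1a thus had the largest log2 difference from wild-type cultures of the 9 targets in both other groups.

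Ccng1 encodes cyclin G1, which recruits a phosphatase to Mdm2. It had 22808.3, 22640 and 31338.3 in wild-type cultures, 35941.4, 29180 and 36605.4 in Nf1-null cultures and 35273.7, 47797.4 and 45787.7 in glioma cultures. Every glioma array lay above every wild-type array, while each of the other pairs of groups overlapped. The 1.68-fold difference between those groups (log2 0.75, SE 0.21, adjusted p = 0.0631) did not pass over all genes. It passed in the brighter genes, with arrays scaled to a common median (log2 0.89) and with the mean of the probe sets (log2 0.95). The second Ccng1 probe set had 4549.5 to 6585.3 in wild-type cultures, 5882.1 to 8193.7 in Nf1-null cultures and 6932 to 10846.6 in glioma cultures, where only the wild-type and glioma arrays did not overlap, and its 1.70-fold difference did not pass (adjusted p = 0.131 over all probe sets). The third gave 1706.2 to 2293.7, 3048.8 to 3880.6 and 4112.5 to 5952.3 in the order of groups above, with no overlap between any of them. That probe set rose 2.52-fold in glioma cultures over wild-type cultures (adjusted p = 0.0250 when all 45037 probe sets were tested one by one).

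Mdm2 encodes the ubiquitin ligase that marks p53 for degradation and closes the feedback loop. It had 2885.7, 2829.8 and 3337.1 in wild-type cultures, 3027.6, 4057.2 and 3821.7 in Nf1-null cultures and 3084, 5625.7 and 4352.8 in glioma cultures. Glioma stem cell array 1 lay within the wild-type range, so the groups overlapped. The difference between glioma cultures and wild-type cultures was 1.40-fold (log2 0.49, SE 0.24, adjusted p = 0.246) with a 95% interval of 0.950 to 2.08-fold. The second Mdm2 probe set had 470.6 to 538.6, 646.3 to 762 and 744.6 to 1277.4 in the 3 groups, where neither other group overlapped wild-type cultures. Its means of 511 in wild-type cultures and 1044 in glioma cultures did not differ at the threshold (adjusted p = 0.0517 over all probe sets). The third probe set was dim, at 13.3 to 130.2 on the 9 arrays, and gave no order of the groups.

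Eda2r encodes a receptor of the tumour necrosis factor receptor family that binds an isoform of ectodysplasin. Its signal was 3324.7, 3482.8 and 3052.1 in wild-type cultures, 4876.5, 3396.1 and 4055.3 in Nf1-null cultures and 6794, 8576.5 and 7726.6 in glioma cultures. All 3 glioma arrays lay above all 6 NSC arrays, and the NSC groups overlapped through Nf1-null array 2. Eda2r rose 2.34-fold over wild-type cultures (log2 1.22, SE 0.18, adjusted p = 0.0144). The gene lies on the X chromosome (chrX:97333837-97377234, GRCm38.p6), and Xist, the RNA that silences an X chromosome in female cells, was at 587.7 and 385.6 on wild-type and Nf1-null arrays 3 and at 30974.5 to 56641 on the other 7. The Y-linked gene Eif2s3y was at 5923.5 to 10621.6, 4457.3 to 8908.7 and 73.2 to 4002.4 in the 3 groups. Most arrays with high Xist thus held Y-linked RNA as well. Eif2s3y, Kdm5d and Uty, all Y-linked, were lower in glioma than in wild-type cultures without overlap, beside 20.9% of all genes. None of them passed in the fit of all genes. On the low-Xist arrays Eda2r was 3052.1 and 4055.3, within or next to the range of its own group. The part of sex in the difference was not tested.

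Aen encodes a nuclease that degrades DNA during p53-dependent cell death. It had 3399, 3437.7 and 3287.9 in wild-type cultures, 5209, 5339 and 4397.1 in Nf1-null cultures and 6368.3, 6423.1 and 5581.5 in glioma cultures, with no overlap between any groups. The rise over wild-type cultures was 1.81-fold in glioma cultures (log2 0.86, SE 0.14, adjusted p = 0.0192). Aen also had the tightest wild-type values of the 9 genes relative to their mean, 3375 ± 77.8 (SD, n = 3). Its 3 dimmer probe sets were 1.47-fold, 1.49-fold and 2.11-fold in the same comparison, of which the last passed when probe sets were tested one by one (adjusted p = 0.0349).

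Bbc3 encodes Puma, a trigger of mitochondrial cell death that acts on the BCL2 family. It had 524.2, 724.9 and 709.8 in wild-type cultures, 574.2, 818.3 and 726.8 in Nf1-null cultures and 581.3, 755.9 and 522.5 in glioma cultures. The 3 groups covered the same range, and glioma cultures were at 0.948 of the wild-type level with a 95% interval of 0.659 to 1.36 (adjusted p = 0.867). A rise as large as that of Cdkn1a lies outside that interval, and one as large as that of Mdm2 lies just beyond it.

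Trp53inp1 encodes a nuclear protein that promotes phosphorylation of p53 and takes part in autophagy. Its signal was 31242, 30034.1 and 32880 in wild-type cultures, 35678, 23954 and 34980 in Nf1-null cultures and 36521.2, 45403.1 and 39181.5 in glioma cultures. Glioma cultures lay above both other groups without overlap, but the 1.28-fold difference from wild-type cultures (log2 0.36, SE 0.19, adjusted p = 0.287) did not pass. The second, dim probe set averaged 210.8, 234.7 and 334.1, with glioma arrays again above both other groups. The probe sets differed in sign between Nf1-null and wild-type cultures, at -0.02 and 0.16 on the log2 scale.

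The sestrins Sesn1 and Sesn2 encode related proteins that restrain the growth kinase mTORC1 and limit oxidative stress. Sesn1 had 8718.5, 7809.9 and 12980.3 in wild-type cultures, 10590, 4464.3 and 10094.3 in Nf1-null cultures and 6335.4, 4960.3 and 5039.3 in glioma cultures. It was the one member whose glioma arrays all lay below the wild-type arrays. Its difference between those groups was -0.83 on the log2 scale (SE 0.36, adjusted p = 0.199) and did not pass. All 4 Sesn1 probe sets had this order without overlap, at -0.83, -0.96, -1.13 and -0.84, and none passed over all probe sets (adjusted p = 0.237, 0.0852, 0.0676 and 0.218). These probe sets share a transcript and the same arrays, so they are not 4 separate measurements of the groups.

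Sesn2 had 1622, 1623 and 1127.8 in wild-type cultures, 1245, 3028.7 and 1130 in Nf1-null cultures and 1462.8, 1617.5 and 2184.8 in glioma cultures. Nf1-null array 2 held the highest value and the other arrays overlapped. The second probe set, almost as bright, disagreed: it had 809.9, 1427.2 and 772 in wild-type cultures, 1497.1, 3237.3 and 1049.8 in Nf1-null cultures and 2096.6, 2495 and 2220 in glioma cultures. Glioma cultures did not overlap wild-type cultures there and differed 2.35-fold (adjusted p = 0.142 over all probe sets), against 1.20-fold (adjusted p = 0.717 over all genes) for the brightest. Sesn2 therefore has no settled order of groups in these data.

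**Figure D2:**
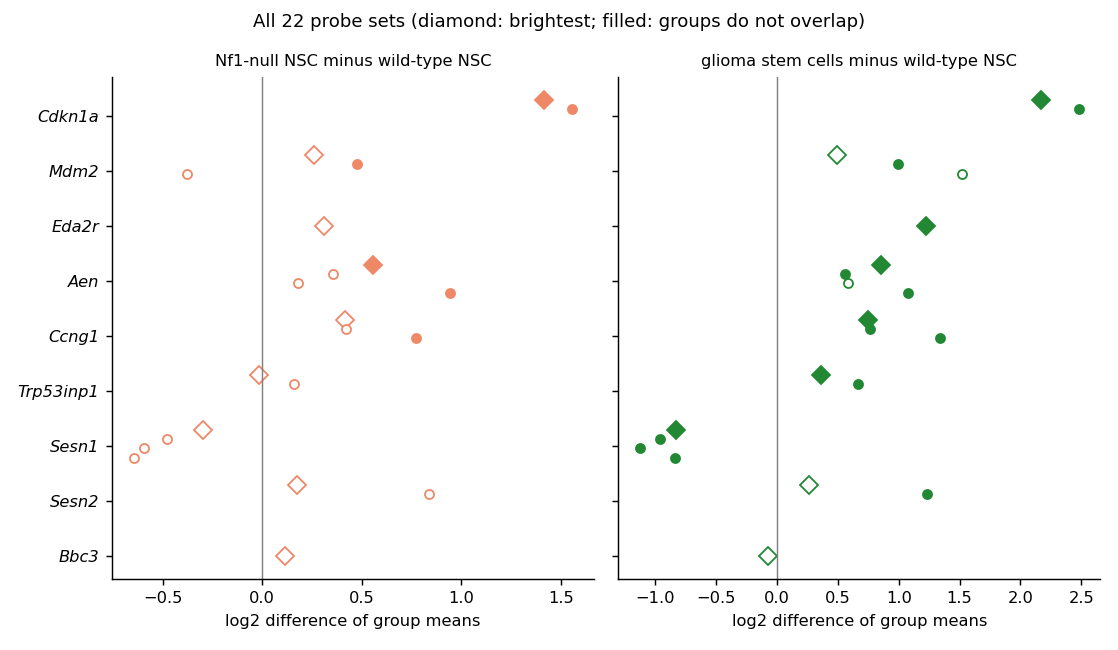
Log2 difference of group means for all 22 probe sets of the 9 measured genes, for Nf1-null NSC (left) and glioma stem cells (right) against wild-type NSC. Filled marks are probe sets whose groups do not overlap; on the right 13 of them lie above 0 and the 4 of Sesn1 below.

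Tested one by one beside all 45037 probe sets, 6 of the 22 rose in glioma cultures over wild-type cultures and 0 fell, against 2.23% of all probe sets that rose. The 6 belonged to 4 genes, Cdkn1a, Eda2r, Aen and Ccng1. Differences were above 0 for 17 of the 22 and below 0 for 5, namely the 4 probe sets of Sesn1 and that of Bbc3. Probe sets of the same gene differed most for Sesn2, Mdm2 and Ccng1, and in all 7 genes with several probe sets they had the same sign in this comparison.

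Nf1-null cultures were compared with wild-type cultures, the same kind of cell given the Cre virus or the LacZ virus. Loss of Nf1 and the Cre virus itself cannot be told apart in this pair. In the fit of all genes with limma 0 of the 9 targets passed, as did 0 genes of 18193 in either direction. At an unadjusted p under 0.05 there were 2 targets, Cdkn1a and Aen, and 16.8% of all genes. These same 2 did not overlap between the groups, both higher in Nf1-null cultures, against 9.75% of genes that were higher without overlap and 14.1% that were lower. Cdkn1a differed 2.67-fold (log2 1.42, SE 0.36, adjusted p = 0.165, 95% interval 1.48 to 4.80-fold) and Aen 1.47-fold (log2 0.56, SE 0.14, adjusted p = 0.165, 95% interval 1.17 to 1.85-fold). In the brighter 9097 genes both passed, at adjusted p = 0.0490 and 0.0453, where 2.29% of genes rose, and with a mean-variance trend in the full fit both stood at 0.0547.

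Same-numbered NSC arrays deviated together in the brighter genes. In such pairs Cdkn1a, Aen, Ccng1, Mdm2 and Bbc3 were higher in Nf1-null cultures in 3 of 3, while Eda2r, Trp53inp1 and Sesn2 were higher in 2 of 3 and Sesn1 in 1 of 3. With the replicate number as a block, in the brighter genes, Cdkn1a and Aen passed (adjusted p = 0.0201 and 0.0276). The other 7 targets did not, and 1081 of the 9097 brighter genes were called. Over all genes the block called 0 genes and 0 targets. The labels state no such pairing, and the block also matched the glioma arrays by number. Ccng1 differed 1.33-fold (95% interval 0.958 to 1.86), Eda2r 1.24-fold (0.926 to 1.66) and Mdm2 1.20-fold (0.811 to 1.77) between these groups, and none passed. Trp53inp1, at 0.990 of wild-type cultures, Bbc3, at 1.08-fold, and Sesn2, at 1.13-fold, had directions that turned when single arrays were left out or, for Trp53inp1, with another scaling. Sesn1 had a log2 difference of -0.30 that became 0.11 without Nf1-null array 2.

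That array also carried the highest levels of several genes of the ATF4 stress response, whose factor ATF4 is made when amino acids run short or the endoplasmic reticulum is under strain. The median of the 10 listed ATF4 genes, relative to the mean of wild-type cultures, was 2.27 on the log2 scale on Nf1-null array 2, and between -0.51 and 0.61 on the other 8 arrays. Trib3, an inhibitor of the kinase AKT, had a signal of 5499.1 there and 203.5 to 1281 elsewhere, and Ddit3, which encodes the stress factor CHOP, had 10616.6 and 1384.3 to 5085. Gadd45a, a growth arrest gene under both p53 and ATF4 and picked after its values were seen, had 10091.1 there and 894.2 to 2842.3 on the other arrays. Sesn2 was highest and Trp53inp1, Sesn1 and Ei24 low on the same array, while Cdkn1a, at 21392.6, was the highest of its group by a smaller margin. The part of the ATF4 genes in the other values of that array was not tested.

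Glioma cultures were then set against Nf1-null cultures, a pair that also differs in the genotype and age of the mice, the tissue and the virus. In limma 0 of the 9 targets passed, when 0.671% of genes rose and 1.08% fell. At an unadjusted p under 0.05 there was 1 target, Eda2r, and 16.5% of all genes. Cdkn1a, Eda2r, Aen and Trp53inp1 were higher in glioma cultures without overlap and 0 targets were lower, beside 9.24% and 12.7% of all genes. Eda2r differed 1.89-fold (log2 0.91, SE 0.18, adjusted p = 0.0571) and passed in the brighter genes (adjusted p = 0.0135), where 2.9% rose, and with a mean-variance trend (adjusted p = 0.0121). Cdkn1a differed 1.68-fold (95% interval 0.935 to 3.03, adjusted p = 0.360) and Aen 1.23-fold (0.977 to 1.55, adjusted p = 0.352).

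The 3 comparisons share arrays, so their values are set side by side without a test of likeness. For Cdkn1a the log2 difference from wild-type cultures was 1.42 in Nf1-null cultures and 2.17 in glioma cultures, and for Aen it was 0.56 and 0.86. For Eda2r it was 0.31 and 1.22. The order of group means was wild-type cultures, Nf1-null cultures, glioma cultures for Cdkn1a, Aen, Ccng1, Mdm2 and Eda2r, and the reverse for Sesn1. For none of these 6 did the difference of Nf1-null cultures from either neighbour in that order pass over all genes.

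**Figure D3:**
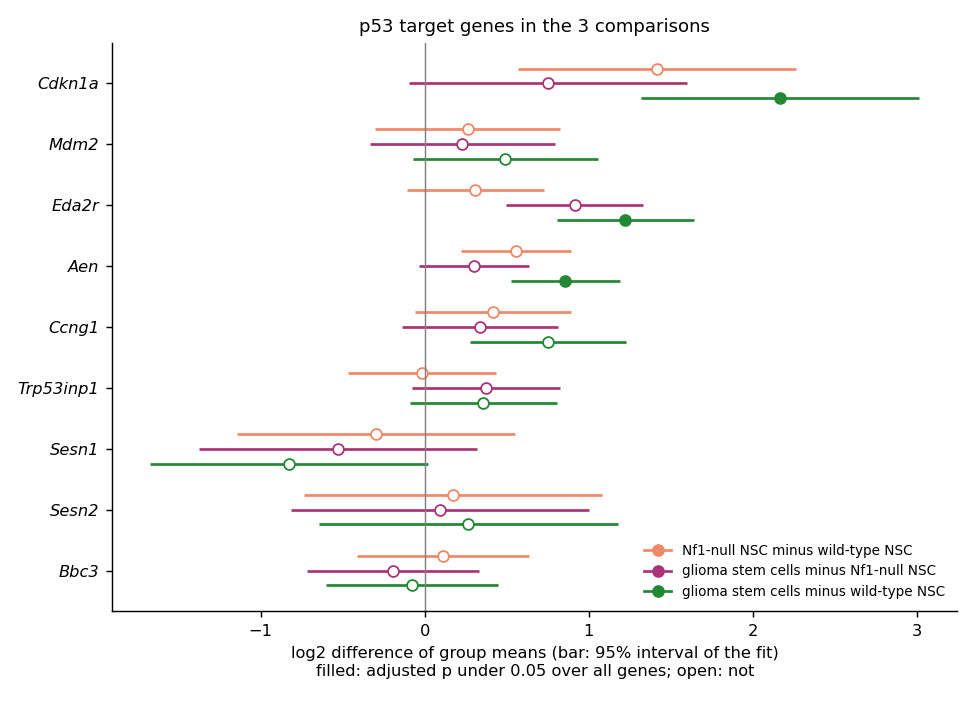
Log2 differences of group means for the 9 measured p53 targets in the 3 comparisons, with 95% intervals from the fit of all 9 arrays. Filled points, Cdkn1a, Eda2r and Aen in the comparison of glioma stem cells with wild-type NSC, passed an adjusted p of 0.05 over all genes.

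Other genes of the p53 pathway were taken from lists of its targets, regulators and related responses. Their counts in glioma against wild-type cultures are to be read beside the 3.46% of all genes that rose, the 5.6% that fell and the median of -0.09 over all genes. With a mean-variance trend those shares were 6.16% and 8.57%. Of 12 measured targets linked to arrest and growth, 3 rose, 0 fell and 9 did not pass, with a median log2 difference of 0.98, and with the trend 6 rose and 0 fell. The 3 were Plk2, a stress-induced polo-like kinase (5.22-fold, adjusted p = 0.0209), and Psrc1 (4.09-fold) and Ckap2 (3.90-fold), which encode spindle proteins. Psrc1 and Ckap2 are also genes of dividing cells. Cdkn2c, a further inhibitor of cyclin-dependent kinases, differed 1.94-fold (adjusted p = 0.0663).

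Of 13 targets linked to cell death, 2 rose and 0 fell in that comparison, with a median of 0.98 beside -0.09 over all genes, and with the trend 4 rose and 1 fell. Trp53i11 rose 3.78-fold (adjusted p = 0.0281), and Phlda3, which competes with AKT for membrane lipids, rose 2.11-fold from 1562.4 to 1777 in wild-type cultures to 2633.1 to 4325.4 (adjusted p = 0.0281). Pmaip1, the gene of the death trigger Noxa, differed 2.73-fold (adjusted p = 0.0859) and Perp, a junction protein gene, had a log2 difference of -2.90 (adjusted p = 0.0566). Of 14 targets in DNA repair and metabolism 4 rose and 0 fell, with a median of 0.48, while 8 were higher and 4 lower without overlap beside 13.9% and 20.9% of all genes. The 4 that rose were Polh, a polymerase that copies past damaged bases (3.30-fold), the epoxide hydrolase gene Ephx1 (2.49-fold), the adenylate kinase gene Ak1 (1.82-fold) and the peptide transporter gene Tap1 (1.69-fold). Ddb2, which encodes a sensor of ultraviolet damage, was at 0.585 of the wild-type level (adjusted p = 0.0718) and Sesn3, the third sestrin gene, at 0.497 (adjusted p = 0.0977). Neither passed in the fit of all genes, and both did with the trend (adjusted p = 0.0419 and 0.0373), where 5 of the 14 rose and 2 fell.

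Among 12 measured regulators of p53 the damage checkpoint kinase gene Chek1 rose 4.03-fold (adjusted p = 0.0233), from 501.7 to 982.4 in wild-type cultures to 2116.6 to 3197.9, and 11 did not pass. The list's median was -0.14, and with the trend 1 rose and 2 fell. Ppm1d, a phosphatase that p53 induces and that restrains it, was at 0.719 of the wild-type level (adjusted p = 0.0953). Of 11 BCL2 family genes, Bcl2l11, which encodes the death activator Bim, fell by 1.54 on the log2 scale (adjusted p = 0.0244), from 4745.6 to 6082.7 down to 1448.3 to 2718.1, and 10 did not pass. With the trend 1 of the 11 rose and 3 fell, and the median was 0.04. Bcl2, which protects from cell death, was at 0.518 of the wild-type level (adjusted p = 0.0510), and Mcl1, another protective gene, differed 1.78-fold (adjusted p = 0.0897).

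The last list held cell cycle genes that p53 lowers by way of p21 and the DREAM repressor complex. All 14 measured had positive differences in glioma cultures over wild-type cultures, with a median of 2.51. Of these, 3 rose: Mcm5 (8.13-fold), Ccne2 (7.99-fold) and Top2a (5.39-fold, adjusted p = 0.0343). With a mean-variance trend 13 of the 14 rose, when 6.16% of all genes did. In Nf1-null against wild-type cultures all 14 were positive as well, with a median of 1.91, and 0 passed. Within wild-type cultures the summed signal of these genes was highest on array 1, at 55592.7, against 9039.3 and 18545.9 on arrays 2 and 3, whereas Cdkn1a was lowest on array 1 and highest on array 3. Within glioma cultures array 1 had the highest sum, 153730 against 98500 and 102143, and the lowest Cdkn1a. In Nf1-null cultures, too, array 1 had the highest sum (126532 against 64213.6 and 56661.9) and the lowest Cdkn1a. Between arrays 2 and 3 of both NSC groups, the array with more Cdkn1a had the higher sum, unlike in glioma cultures. Across groups, Cdkn1a and the sums were both higher in Nf1-null and glioma cultures than in wild-type cultures. With 3 arrays per group these orders are a description.

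**Figure D4:**
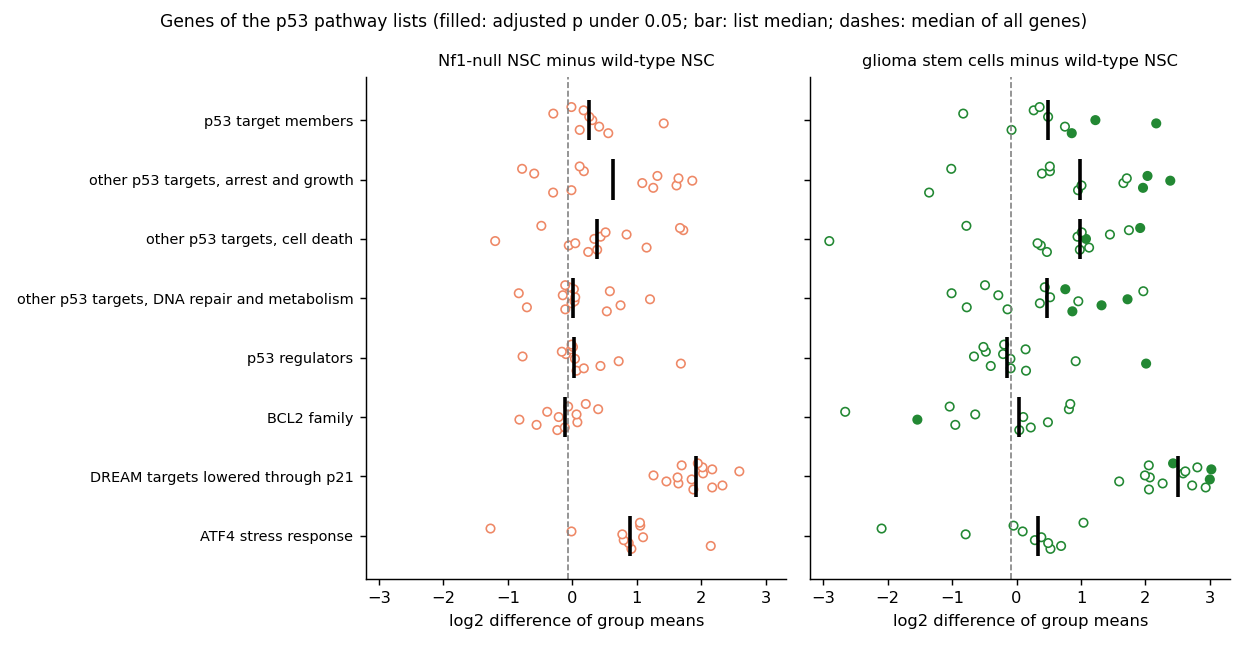
Log2 differences of single genes in 8 lists of the p53 pathway and related responses, for Nf1-null NSC (left) and glioma stem cells (right) against wild-type NSC. Filled points passed an adjusted p of 0.05, bars are list medians and dashes the median of all genes (-0.06 and -0.09).

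Against Nf1-null cultures and between the NSC groups 0 genes passed in these p53 pathway, BCL2 family, DREAM and ATF4 lists in the limma fit of all genes. When the variance prior followed a mean-variance trend, Chek1, Plk2, Psrc1 and Trp53i11 were higher in Nf1-null than in wild-type cultures at adjusted p = 0.0402, 0.0387, 0.0248 and 0.0490, when 1.06% of all genes were called higher and 0.753% lower. In glioma cultures against Nf1-null cultures, Cdkn2c was higher with that trend (adjusted p = 0.0458) and Ddit4, a stress gene that restrains mTORC1, was lower (adjusted p = 0.0132), beside 1.71% of all genes called higher and 2.34% called lower.

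Of the brighter genes, those whose centred log2 signals over the 9 arrays lay closest to Cdkn1a were Ank3, Crim1, Tspan4, Epn2 and Tle5. Their root mean square differences from it were 0.26 to 0.36, beside a spread of 0.98 for Cdkn1a itself. Ank3 had mean signals of 2447, 6700 and 13680 in wild-type cultures, Nf1-null cultures and glioma cultures. For Mdm2 the closest were Clock, Enpp4, Bcl2l1, Stx7 and Pxn, at 0.11 to 0.13 beside a spread of 0.31. Bcl2l1, a BCL2 family gene that protects from cell death, had mean signals of 2163, 2288 and 3123.

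The ratio of 3' to 5' Actb control signal, a measure of RNA quality, was 1.87 to 1.88 in wild-type cultures, 1.49 to 1.67 in Nf1-null cultures and 1.73 to 1.85 in glioma cultures. It separated every pair of groups, with an exact permutation p (two-sided) of 0.1 for each, the smallest that 3 against 3 arrays allow. The same ratio for Gapdh overlapped between all groups, at 0.954 to 1.14, 0.927 to 0.962 and 0.948 to 1.14. The part of RNA quality in the differences was not tested.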

How the data were processed

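Each of 9 samples in 3 groups gave 100 ng of RNA, which was labelled with biotin and hybridised to an Affymetrix array (per the labels' protocols). The deposited values are intensity signals per probe set on a linear scale. Which tool summarised the probes is not given in the sources used. Each array had a mean of 1500 once 2% of probe sets was trimmed at either end, which sets aside differences in total RNA. Among 45101 probe sets were 64 controls, and GEO's platform annotation gave 34945 a single symbol, 932 more than that and 9160 no symbol. Depth does not apply to arrays, and their number limits the precision.

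Signals were turned into log2(value + 1), so folds are on that scale. The brightest probe set stood for each of 18193 genes. limma 3.58.1, run in R 4.3.3, fitted 3 group means to all 9 arrays, and variances were moderated by empirical Bayes without a mean-variance trend. Benjamini-Hochberg adjustment ran over all genes, two-sided, at 0.05. The model was tested on simulated data. The brighter genes are the 9097 whose log2 signal averaged 9.27 or more.

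Members and lists were chosen with earlier results of these data known. Named genes are all members, Nf1, up to 4 genes per list and comparison with the smallest p, and the 5 genes closest to Cdkn1a and to Mdm2. Gadd45a was named after its values were seen, as were the marker genes, Xist and the Y-linked genes.

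For arrays 1, 2 and 3 the deviations from the group means correlated between the NSC groups at 0.64, 0.24 and 0.59 over the brighter genes and at 0.13, 0.055 and 0.17 over all genes. The labels do not state a pairing, so it comes from the data. The block also matched glioma arrays by number. Over the brighter genes their deviations correlated at 0.24, 0.052 and 0.20 with wild-type arrays and at 0.30, 0.12 and 0.11 with Nf1-null arrays.

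Alternatives covered scaling, probe set summary, filters, variance prior, arrays fitted, the replicate block, the pseudocount and each array left out. Figures were drawn with matplotlib 3.10.9.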

Additional observations from a re-analysis of the deposited data

How the results depend on the processing

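Over all genes, Nf1-null minus wild-type cultures gave 0 calls, but 398 in the brighter genes, 136 with a milder filter that drops the dimmest genes, 329 with a mean-variance trend and 378 with a robust trend. Glioma minus Nf1-null cultures gave 319 calls, with 149 from the mean of a gene's probe sets, 607 in the brighter genes, 536 with the milder filter, 737 with the trend, 773 with the robust trend and 29 from the 6 arrays compared. Glioma minus wild-type cultures gave 1649, with 1083, 2472, 2488, 2680, 2767 and 1030 under those settings in the same order.

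Of the 9 targets, 2 were called between Nf1-null and wild-type cultures in the brighter genes and 1 with the robust trend. Between glioma and Nf1-null cultures 1 was called, Eda2r, in the brighter genes, with the milder filter, with either trend, with arrays scaled to a common median and with a pseudocount of 16.

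With the replicate number as a block the calls over all genes were 0, 193 and 1536 in the order of comparisons above, and 0, 0 and 3 of the targets were called. In the brighter genes the block gave 1081, 944 and 3013 genes and 2, 1 and 5 targets, with Sesn1 called lower in glioma than in wild-type cultures (adjusted p = 0.0443). In the 6 arrays compared, the block gave 0 genes and 0 targets in each comparison. The block changed no other call of a target. The labels pair no glioma array with an NSC array, so blocked p-values of the glioma comparisons rest on the replicate number alone.

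Leaving out 1 array at a time gave 0 to 1, 72 to 721 and 214 to 1756 genes and 0, 0 to 1 and 0 to 4 targets. Directions turned for members near 0. Between Nf1-null and wild-type cultures Trp53inp1 had a log2 difference of 0.051 with a common median and 0.072 with the mean of its probe sets. Over the arrays left out there it ran from -0.12 to 0.17, Sesn1 from -0.52 to 0.11, Sesn2 from -0.28 to 0.43 and Bbc3 from -0.037 to 0.25. Between glioma and wild-type cultures Bbc3 was 0.051 after quantile normalization, 0.059 with a common median and -0.23 to 0.037 over the arrays left out. Sesn2 between glioma and Nf1-null cultures ran from -0.17 to 0.54. The causes were not tested. Signals near background, as for the third Mdm2 probe set, limit what small differences can show.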
